A study of Mus musculus with 6 samples.

Results

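The *Hox* genes of clusters A to D were followed in mouse endothelial cells with and without VEC (vascular endothelial cadherin). The members are the 39 genes of the mouse annotation named *Hoxa*, *Hoxb*, *Hoxc* or *Hoxd* with a paralog number, taken by name and not by their values. A row for 29 of them was in the table of 24080 genes. VEC-positive cells were made by putting wild-type VEC into VEC-null cells with a retrovirus. VEC-null cells are an endothelial line that was derived from mouse embryonic stem cells and carries a null mutation on both alleles of the VEC gene, so the VEC-positive cells also carry that mutation beneath the viral copy. Each cell type had 3 libraries of total RNA (VEC-positive 1 to 3 and VEC-null 1 to 3). Each cell type is 1 line, and the spread between libraries does not measure how independently made lines would differ.

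Hox proteins are transcription factors that bind DNA through a homeodomain, and their genes lie side by side in 4 clusters that arose by duplication. Genes with the same paralog number in different clusters are the closest relatives. In the embryo, the order of the genes along a cluster follows the order of their domains from head to tail, and Polycomb proteins keep the genes silent outside those domains. Cells in culture often keep the *Hox* pattern of the region that they came from. In endothelium, human HOXA9, HOXB3, HOXB5 and HOXD3 have been linked to growing vessels, and human HOXA5 and HOXD10 to quiescent ones. Paralog groups 1 to 3 are called anterior here, 4 to 8 central and 9 to 13 posterior. In GRCm38 (mm10), cluster A extends over chr6:52155590-52260880, cluster B over chr11:96194316-96368256, cluster C over chr15:102921103-103036852 and cluster D over chr2:74668310-74765142.

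The libraries held 6036155 to 14136376 gene reads, with a median of 11128657. Values are normalized counts, meaning gene reads divided by 1 size factor per library, and the *Hox* genes together took 1968 to 2888 reads per library in VEC-positive cells and 1906 to 3219 in VEC-null cells. All 12 endothelial markers of a fixed list had a row, and their summed normalized counts were 67702 to 69760 in VEC-positive cells and 47380 to 50019 in VEC-null cells. *Cdh5*, which encodes VEC, ran against the labels. It had 794.3, 739.4 and 749.7 normalized counts in the libraries labelled VEC-positive, against 1334, 1439 and 1689 in the libraries labelled VEC-null. Of the 12 markers, 8 passed limma's test given below with more counts in VEC-positive cells, and 2 passed with fewer, *Cdh5* and *Robo4*. Thus 83.3% of the 12 passed, beside 37.3% of all genes tested. *Esam* and *Egfl7* did not pass. *Robo4* had 496.9, 472.5 and 505.2 counts in VEC-positive cells, against 769.6, 724.5 and 674.7 in VEC-null cells. *Cldn5*, of the tight junctions, had 429.2, 512.4 and 434.1 counts in VEC-positive cells, against 9.18, 5.51 and 4.43 in VEC-null cells, and *Vwf*, a secreted matrix protein gene, had 1813, 1657 and 1770 counts in VEC-positive cells, against 407.0, 385.1 and 409.6 in VEC-null cells. The reads counted for *Cdh5* need not come from the viral copy or from an intact gene, and every direction given below is drawn between libraries as labelled. Pluripotency markers had no row for 4 of 8 genes and summed to 0.974 to 13.7 in VEC-positive cells and 3.55 to 10.7 in VEC-null cells. Among the fibroblast and mural cell markers, with summed counts of 238 to 283 in VEC-positive cells and 81.6 to 205 in VEC-null cells, *Lum* and *Cspg4* had no row and *Pdgfrb* was the only gene to pass the test, with 95.6, 117.9 and 102.5 counts in VEC-positive cells against 1.53, 0 and 1.77 in VEC-null cells. Of 8 blood markers, 3 had no row and 4 were at 0 to 3.23 counts, so that *Itgam*, with 155.1, 99.4 and 145.3 counts in VEC-positive cells against 405.5, 389.0 and 83.3 in VEC-null cells, made up nearly all of their sums of 100 to 157 in VEC-positive cells and 85.1 to 412 in VEC-null cells. Epithelial markers summed to 1.17 to 2.42 in VEC-positive cells and 4.59 to 7.09 in VEC-null cells. Neural markers, led by *Nes*, summed to 4229 to 4738 in VEC-positive cells and 3335 to 5052 in VEC-null cells. Among them, *Pax6* had 432.7, 281.5 and 531.0 counts in VEC-positive cells, against 1045, 808.0 and 239.4 in VEC-null cells. Neither *Nes* nor *Pax6* passed. The share of mitochondrial reads was 18.0 to 24.2% in VEC-positive libraries and 9.62 to 14.9% in VEC-null libraries. VEC-null 3 stood apart from its group: the chi-square per gene was 45.2 and 43.6 against VEC-null 1 and VEC-null 2, which differed by 6.05 between themselves, and was 10.8 to 16.6 within the VEC-positive group. The part of these differences in the results below was not tested.

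The cells of both groups had a central *Hox* profile. A member was called expressed when its normalized count reached 10 in 3 or more libraries, which 18 of the 39 did. Another 11 had reads below that level, called traces here, and 10 had no row. All 13 central members with a row were expressed, against 4 of 7 anterior and 1 of 9 posterior members with a row, the last being *Hoxd9*. Among all members, with or without a row, 13 of 15 central, 4 of 8 anterior and 1 of 16 posterior members were expressed. By cluster, 6 expressed members lay in A, 7 in B, 2 in C and 3 in D. All 18 averaged at least 10 counts in both cell types, so none of the 18 was expressed in 1 cell type alone by this measure. Of the traces, *Hoxb9* and *Hoxd11* averaged at least 10 counts in VEC-null cells but not in VEC-positive cells. No row of the table was 0 in all 6 libraries and 801 rows had reads in 1 library only, so a gene with no reads anywhere would have no row. The 10 members without one were *Hoxa11*, *Hoxb13*, *Hoxc4*, *Hoxc5*, *Hoxc10*, *Hoxc11*, *Hoxc12*, *Hoxc13*, *Hoxd1* and *Hoxd12*, and they were not analysed here. Of these, 7 are posterior, 2 are central (*Hoxc4* and *Hoxc5*) and 1 is anterior, and 6 lie in cluster C.

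**Figure D1:**
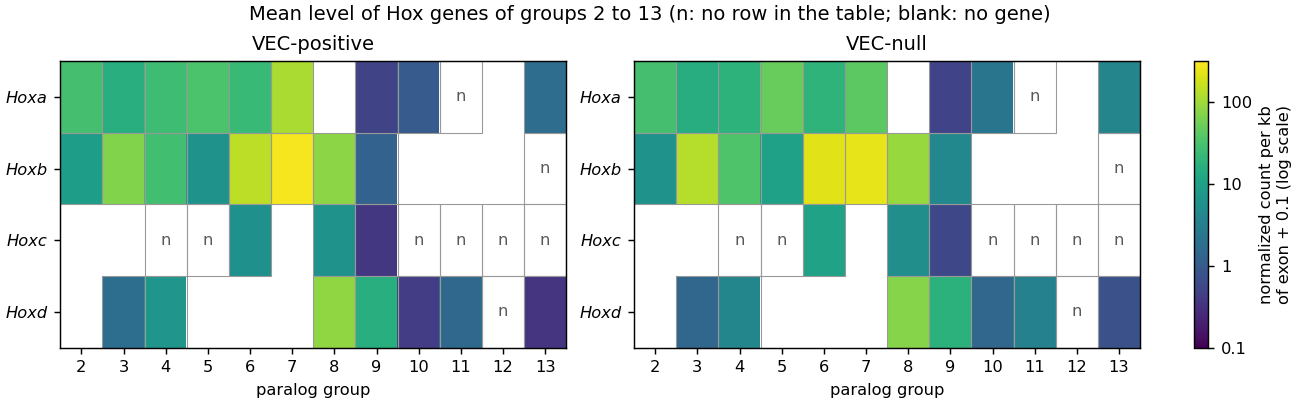
Mean normalized count per kilobase of annotated exon (colour, log scale, 0.1 added) for the *Hox* genes of paralog groups 2 to 13, by cluster (rows) and paralog group (columns). VEC-positive cells are on the left and VEC-null cells on the right, n = 3 libraries each. The letter n in a cell marks a gene without a row, and a blank cell a paralog that the cluster of that row does not have. In both cell types the bright cells lie in groups 2 to 8 of clusters A and B and at *Hoxd8*, with *Hoxb7* brightest at 287 in VEC-positive and 233 in VEC-null cells.

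Per length, cluster B gave the highest level in both cell types. *Hoxb7*, whose human counterpart activates the gene of a fibroblast growth factor in tumor cells, had 287 ± 23.1 normalized counts per kilobase of exon in VEC-positive cells and 233 ± 29.1 in VEC-null cells (SD, n = 3 each). *Hoxb6*, a gene of the lateral mesoderm and the trunk, followed with 140 ± 24.6 in VEC-positive and 220 ± 89.1 in VEC-null cells. The order below these genes was not the same in the 2 cell types. *Hoxa7* was at position 3 of the 18 in VEC-positive cells, with 114 ± 12.1 counts per kilobase, and at position 7 in VEC-null cells, with 41.6 ± 4.88. *Hoxb3* was at position 6 in VEC-positive cells, with 68.3 ± 17.4, and at position 3 in VEC-null cells, with 128 ± 63.6. In VEC-positive cells, *Hoxd8* (83.3 ± 5.48) and *Hoxb8* (76.6 ± 5.28) differed by about as much as their SDs, and so did *Hoxa2* (29.6 ± 6.09), *Hoxb4* (27.4 ± 3.35) and *Hoxa4* (25.7 ± 8.24). Apart from *Hoxd9*, at 15.5 ± 2.09 in VEC-positive and 17.9 ± 4.07 in VEC-null cells, no posterior member reached the filter. Of the 4251 exon bases of *Hoxb3*, 2250 are also exon of its antisense gene *Hoxb3os*. Its full count divided by only the bases that no other gene covers is 145 in VEC-positive and 272 in VEC-null cells. That is position 2 in VEC-positive cells and position 1, above *Hoxb7*, in VEC-null cells. These values would be its level only if no read on the shared bases was counted, and reads were not recounted over single bases. The kit was stranded, but no source read for this work says whether strand was used in counting. The reads of *Hoxb3*, of *Hoxa3* (1631 shared bases) and of *Hoxd4* (1542 bases shared with *Hoxd3*, *Gm28230* or the antisense *Hoxd3os1*) are therefore uncertain.

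Summed over all members with a row, the normalized counts were 2295, 2171 and 2331 in VEC-positive cells, against 2916, 2535 and 1928 in VEC-null cells. These totals overlapped. Cluster A came to 606 ± 36.3 in VEC-positive cells and 422 ± 23.6 in VEC-null cells, cluster D to 296 ± 10.6 in VEC-positive cells and 272 ± 9.57 in VEC-null cells, and cluster C to 31.1 ± 5.39 in VEC-positive cells and 41.1 ± 24.7 in VEC-null cells (SD, n = 3 each). Cluster B held most of the counts, with 1397, 1187 and 1415 in VEC-positive cells, against 2162, 1811 and 1201 in VEC-null cells. The low VEC-null value is that of VEC-null 3. Central members made up 74.1 to 78.6% of all *Hox* counts in VEC-positive cells and 61.8 to 71.9% in VEC-null cells, and posterior members 2.15 to 2.54% in VEC-positive cells and 3.23 to 3.91% in VEC-null cells.

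The comparison of the cell types asks which *Hox* genes differ when the VEC-null line has received VEC. Of the 18 expressed members, 1 was higher in VEC-positive cells (*Hoxa7*), 1 was lower (*Hoxa5*) and 16 did not pass limma's test at an adjusted p of 0.05. The 2 members are 11.1% of the 18. Over all 14032 genes tested, 37.3% passed, 20.9% as higher and 16.4% as lower in VEC-positive cells. Among the 9022 genes whose mean lay within the range of the members, 15.6 to 417 normalized counts, 32.9% passed, a range that was set after the values were seen. The median log2 fold change was 0.09 over the members and −0.01 over all genes tested, and the median size of a change, whatever its sign, was 0.31 over the members and 0.39 over all genes. The VEC-positive and VEC-null libraries did not overlap for 8 of the 18 members, with 5 higher and 3 lower, which is 44.4%, beside 50% of all genes tested. In such bulk libraries, a change in the share of cells that express a gene and a change in its RNA per cell cannot be told apart. For 9 members the 95% interval of the change stayed within 2-fold either way.

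**Figure D2:**
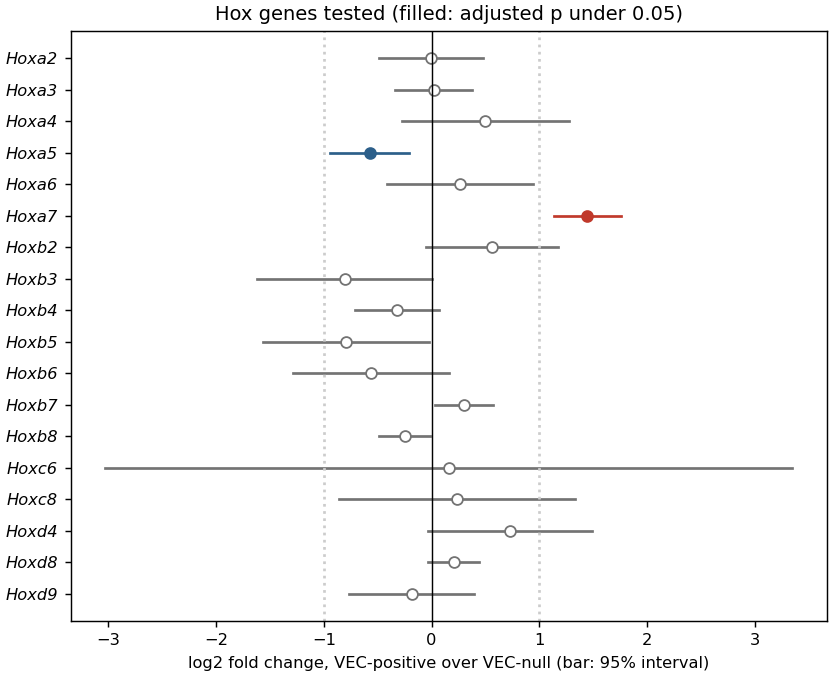
Log2 ratio of VEC-positive to VEC-null cells (horizontal axis) with its 95% interval from limma (bars) for the 18 expressed *Hox* genes, from cluster A at the top to cluster D at the bottom; filled points passed at an adjusted p of 0.05 and dotted lines mark 2-fold. *Hoxa7* lies to the right at 1.45 and *Hoxa5* to the left at −0.57, while the bars of most other genes cross 0 and that of *Hoxc6* runs from −3.03 to 3.35.

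*Hoxa7* (ENSMUSG00000038236, chr6:52214491-52221854, minus strand) was the only member with a change of more than 2-fold that passed. With *Hoxa9* and *Meis1* it belongs to the genes that are activated together in mouse myeloid leukemia, and it is a classical target of Polycomb silencing. It had 326.6, 362.4 and 292.9 normalized counts in VEC-positive cells, against 104.0, 123.6 and 131.2 in VEC-null cells. The lowest VEC-positive library was far above the highest VEC-null library. Its level was 2.72-fold higher, with a 95% interval of 2.20 to 3.38 (log2 fold change 1.45 ± 0.13 SE, limma, adjusted p = 0.00011). The gene passed under all 16 other settings tried. With libraries set to equal totals, which moves the median of all genes to −0.32, the change was 1.14. Of its 2876 exon bases, 586 are shared with the antisense gene *Hoxaas3*, which had 7.00, 1.95 and 6.46 counts in VEC-positive cells, against 7.65, 11.8 and 7.09 in VEC-null cells. All VEC-positive libraries had fewer *Hoxaas3* counts than the VEC-null libraries, with 7.00 and 7.09 as the nearest values, and these counts were few beside those of *Hoxa7*.

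*Hoxa5* (ENSMUSG00000038253, chr6:52201754-52204587, minus strand) lies in the same cluster between *Hoxa4* and *Hoxa6* and shares no exon base with another annotated gene. Human HOXA5 is known for holding back vessel sprouting. It had 56.0, 63.3 and 60.5 normalized counts in VEC-positive cells, against 91.8, 80.3 and 97.5 in VEC-null cells. The groups did not overlap, and its level was 0.672-fold that of VEC-null cells, with a 95% interval of 0.521 to 0.866 (log2 fold change −0.57 ± 0.16 SE, limma, adjusted p = 0.0231). This call was near the threshold. It was lost with DESeq2 (adjusted p = 0.0647) and when VEC-positive 1, VEC-positive 2, VEC-positive 3 or VEC-null 1 was left out (limma, adjusted p = 0.0831, 0.0576, 0.0673 and 0.0566), with the change between −0.53 and −0.61 in these fits.

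Promoter sequences of these 2 genes are shown because they are the members that passed, 1 in each direction, within 1 cluster. They were taken from RefSeq (GRCm38.p6, minus strand, 5′ to 3′), which gives a promoter for 22 of the 39 members. Capitals mark TTTATG, the site that caudal (Cdx) factors bind.
Hoxa7, chr6:52218712-52218823: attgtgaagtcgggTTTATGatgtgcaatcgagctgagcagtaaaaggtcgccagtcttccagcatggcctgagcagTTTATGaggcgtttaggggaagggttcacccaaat
Hoxa5, chr6:52204588-52204837: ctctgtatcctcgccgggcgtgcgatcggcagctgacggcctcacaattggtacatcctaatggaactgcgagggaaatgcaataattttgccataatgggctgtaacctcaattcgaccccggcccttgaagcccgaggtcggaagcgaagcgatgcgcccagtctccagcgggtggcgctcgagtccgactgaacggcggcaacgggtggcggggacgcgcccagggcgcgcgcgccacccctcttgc
The *Hoxa5* sequence is the 250 bases before its annotated start. That of *Hoxa7* is the part of the 250 bases before its RefSeq start that no annotated exon of the gene covers. This part lies inside the annotated span of *Hoxa7* given above, not before the whole gene. GENCODE M21 gives 5 starts for *Hoxa7*, none of them the RefSeq start, and gene counts do not show which was used. Within its 250 bases, the *Hoxa7* promoter held 2 TTTATG on the strand of the gene, at 236 and 173 bases before the RefSeq start, and the *Hoxa5* promoter none on either strand. Of 32851 mouse promoters, 10.8% held at least 1 TTTATG and 1.02% at least 2, and 5 of the 22 *Hox* genes with a promoter held it (22.7%). Among these 5, *Hoxb8* also held 2, and its change of −0.25 did not pass. TGATNNAT, a site for paired Pbx and Hox proteins whose last letters can overlap a caudal site, was in neither sequence, in 4 of the 22 *Hox* genes (18.2%) and in 7.68% of all promoters. Over the 250 bases before each start, the ratio of observed to expected CpG was 0.386 for *Hoxa7* and 1.11 for *Hoxa5*. The median over all promoters was 0.373. For *Hoxa7* the 250 bases include exon bases that are not printed above, so 0.386 is not the ratio of the printed part. These are matches of letters and not measured binding.

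**Figure D3:**
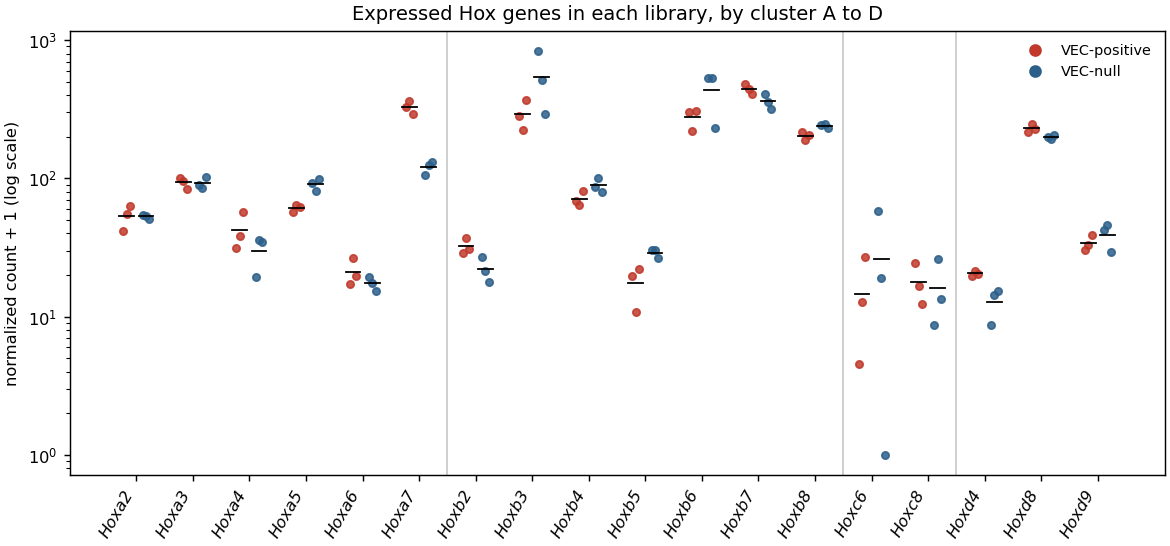
Normalized count + 1 (log scale) of the 18 expressed *Hox* genes in each library, VEC-positive left of VEC-null within each gene, with a black line at the mean of 3 libraries and grey lines between clusters A, B, C and D. *Hoxa7* stands clear of its VEC-null points, the VEC-null points of *Hoxb3* and *Hoxb6* include 1 low library, and *Hoxc6* is at 0 in 1 VEC-null library.

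In the anterior groups, none of the 4 expressed members passed. *Hoxa2*, which patterns the hyoid arch, had 40.8, 54.6 and 62.1 normalized counts in VEC-positive cells, against 53.6, 52.8 and 49.6 in VEC-null cells. *Hoxa3*, needed for the thymus and the parathyroid, had 100.3, 94.5 and 82.3 counts in VEC-positive cells, against 88.7, 83.5 and 101.1 in VEC-null cells. The values of both genes overlapped almost fully, and their 95% intervals of 0.713 to 1.39-fold and 0.792 to 1.30-fold exclude a 2-fold change. *Hoxb2*, a gene of the hindbrain, had 28.0, 36.0 and 29.9 counts in VEC-positive cells, against 26.0, 20.5 and 16.8 in VEC-null cells. Its groups did not overlap, but the change of 0.56 did not pass (limma, adjusted p = 0.136). *Hoxb3*, linked in human endothelium to the forming of capillaries, had 282.3, 221.1 and 368.0 counts in VEC-positive cells, against 827.8, 516.6 and 289.0 in VEC-null cells. VEC-null 3 lay among the VEC-positive libraries, and the change of −0.81 did not pass (limma, adjusted p = 0.111). Without VEC-null 3 it was −1.20 and passed as lower (limma, adjusted p = 0.00266), and it also passed with equal totals, at −1.12.

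Of the 13 expressed central members, 11 did not pass. *Hoxb6* resembled *Hoxb3*. It had 303.3, 220.2 and 304.2 normalized counts in VEC-positive cells, against 535.5, 531.6 and 230.5 in VEC-null cells. VEC-null 3 again lay among the VEC-positive libraries, the change of −0.56 did not pass (limma, adjusted p = 0.201), and it was −0.96 without VEC-null 3 (limma, adjusted p = 0.000575). *Hoxb7*, the neighbor of *Hoxb6* and the paralog of *Hoxa7*, had 477.0, 445.2 and 405.9 counts in VEC-positive cells, against 405.5, 357.5 and 315.6 in VEC-null cells. Its groups met within 1 count of each other, and the change of 0.30 did not pass (limma, adjusted p = 0.0745). Without VEC-null 1 it passed at 0.39 (limma, adjusted p = 0.0363), and with equal totals it turned to −0.01. *Hoxb8*, which blocks differentiation of myeloid precursors when overexpressed, had 214.6, 187.0 and 204.2 counts in VEC-positive cells, against 243.3, 247.3 and 228.7 in VEC-null cells. All VEC-null libraries were higher, though the change of −0.25 did not pass (limma, adjusted p = 0.0963). *Hoxb4*, a gene that expands blood stem cells, had 67.6, 63.3 and 79.9 counts in VEC-positive cells, against 85.7, 99.2 and 78.9 in VEC-null cells (change −0.32, limma, adjusted p = 0.180). *Hoxb5*, whose human counterpart is linked to endothelial precursors, had 18.7, 9.74 and 21.0 counts in VEC-positive cells, against 29.1, 29.1 and 25.7 in VEC-null cells (change −0.79, limma, adjusted p = 0.0985). Of cluster B, *Hoxb3*, *Hoxb4*, *Hoxb5* and *Hoxb8* passed as lower with equal totals, where their changes of −1.12, −0.63, −1.09 and −0.56 are read against the shifted median of −0.32.

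In the rest of the central groups the counts were mostly lower. *Hoxa4* had 30.3, 37.0 and 55.7 normalized counts in VEC-positive cells, against 18.4, 34.7 and 33.7 in VEC-null cells. *Hoxa6* had 16.3, 25.3 and 18.6 counts in VEC-positive cells, against 18.4, 16.5 and 14.2 in VEC-null cells. Both overlapped between the cell types, and the changes of 0.50 for *Hoxa4* and 0.26 for *Hoxa6* did not pass. *Hoxd4* had 18.7, 20.5 and 19.4 counts in VEC-positive cells, against 7.65, 13.4 and 14.2 in VEC-null cells, without overlap (change 0.73, limma, adjusted p = 0.123). *Hoxd8*, the most abundant member of cluster D, had 214.6, 244.5 and 226.8 counts in VEC-positive cells, against 197.4, 192.2 and 203.9 in VEC-null cells. Its groups did not overlap, and the change of 0.21, or −0.10 with equal totals, did not pass (limma, adjusted p = 0.153). The 2 expressed genes of cluster C varied most. *Hoxc6* had 3.50, 11.7 and 25.8 counts in VEC-positive cells, against 56.6, 18.1 and 0 in VEC-null cells. *Hoxc8* had 23.3, 15.6 and 11.3 counts in VEC-positive cells, against 7.65, 25.2 and 12.4 in VEC-null cells. For *Hoxc6* the fold change has an interval of 0.122 to 10.2, so these libraries set almost no limit on it.

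Posterior members were few and low. *Hoxd9* had 29.2, 32.1 and 37.9 normalized counts in VEC-positive cells, against 41.3, 44.9 and 28.4 in VEC-null cells (change −0.18, limma, adjusted p = 0.599). Of the traces, *Hoxd11* had 17 reads over the 3 VEC-positive libraries and 38 over the 3 VEC-null libraries, *Hoxa13* had 12 in VEC-positive and 25 in VEC-null cells, *Hoxa10* had 9 in VEC-positive and 21 in VEC-null cells, and *Hoxb9* had 9 in VEC-positive and 33 in VEC-null cells. Normalized counts of *Hoxb9* were 2.33, 4.87 and 1.61 in VEC-positive cells, against 9.18, 8.66 and 14.2 in VEC-null cells, without overlap. *Hoxb9* was not tested in the main comparison because it was below the filter. Among the anterior traces, *Hoxd3* had 22 reads in VEC-positive and 17 in VEC-null cells and was the only trace with more reads in VEC-positive cells. *Hoxa9*, which in human endothelium is tied to nitric oxide synthase and *EPHB4*, had 7 reads in VEC-positive and 8 in VEC-null cells. *Hoxb1*, *Hoxc9*, *Hoxd10* and *Hoxd13* had under 10 reads in each cell type. At this depth a difference in most of these genes was not detectable.

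Few other transcripts of the clusters reached the filter. GENCODE M21 places 46 further genes between the outer members of the clusters, of which 19 had a row and 5 were tested. Among the 46 are microRNA genes and other very short annotated genes. For these, a missing row or a low count does not show that the RNA was rare. Of the 5, *Hoxd3os1* was higher in VEC-positive cells and 4 did not pass (*Hoxaas2*, *5730596B20Rik*, *Gm53* and *Hoxb3os*). Thus 20% passed, beside 37.3% of all genes tested. *Hoxd3os1*, antisense to part of *Hoxd4*, had 68.8, 62.3 and 60.5 normalized counts in VEC-positive cells, against 33.7, 34.7 and 50.5 in VEC-null cells (log2 fold change 0.70 ± 0.22 SE, limma, adjusted p = 0.0361). The call was lost with DESeq2 (adjusted p = 0.108), with equal totals (adjusted p = 0.165), with no filter (adjusted p = 0.0534) and without any 1 of VEC-positive 1, VEC-positive 2, VEC-positive 3, VEC-null 1 and VEC-null 2 (limma, adjusted p = 0.122, 0.0978, 0.0852, 0.0918 and 0.107). *Hotairm1*, a noncoding RNA at the start of cluster A, had 11.7, 8.77 and 10.5 counts in VEC-positive cells, against 4.59, 7.88 and 3.55 in VEC-null cells, which is below the filter but without overlap. *Evx1* and *Hotair* had no row.

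Genes beside the clusters were read from the same fit. The list held the 4 nearest protein-coding genes on each side of each cluster, leaving out the *Evx* genes. Of its 32 genes, 27 were tested, and 6 were higher, 2 were lower and 19 did not pass. These 8 are 29.6% of the 27, beside 37.3% of all genes tested, and the median change over the 27 was 0.11. On the side of cluster D with higher coordinates, *Nfe2l2*, which encodes the antioxidant regulator NRF2, had 2965, 3115 and 3043 normalized counts in VEC-positive cells, against 1239, 1133 and 1106 in VEC-null cells (change 1.39). It starts at chr2:75675513. *Mtx2* and *Hnrnpa3*, which lie between it and the cluster, did not pass (changes 0.17 and 0.003). *Nfe2l1*, a relative of *Nfe2l2* in the list for cluster B, changed by 0.87. *Skap2*, beside cluster A, had 1466, 1541 and 1383 counts in VEC-positive cells, against 943, 912 and 1123 in VEC-null cells (change 0.56, limma, adjusted p = 0.0026). At the other side of cluster A, *Jazf1* had 8.16, 5.84 and 7.26 counts in VEC-positive cells, against 29.1, 27.6 and 28.4 in VEC-null cells (change −1.87). *Hibadh* and *Tax1bp1*, which lie between *Jazf1* and the cluster, did not pass (changes 0.11 and 0.15). The neighbors that passed thus lay beside all 4 clusters, and *Atf2*, *Atf7*, *Snx11* and *Hnrnpa2b1* complete them with changes of 0.46, 0.49, 0.49 and −0.25. With equal totals *Atf2* and *Atf7* did not pass, at 0.15 and 0.18. The calls of *Snx11* and *Hnrnpa2b1* were near the threshold and lost when 1 library was left out, for *Snx11* any VEC-positive library or VEC-null 1 (limma, adjusted p up to 0.148) and for *Hnrnpa2b1* any VEC-positive library, VEC-null 1 or VEC-null 2 (limma, adjusted p up to 0.167).

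Genes of the cofactors of Hox proteins passed in both directions. Pbx, Meis and Pknox proteins are homeodomain proteins that bind DNA together with Hox proteins and sharpen their choice of sites. Of 9 genes, 7 were tested, and 3 were higher, 1 was lower and 3 did not pass, with a median change of 0.30 where that of all genes was −0.01. The 4 that passed are 57.1% of the 7, beside 37.3% of all genes. *Meis2* had 2118, 2114 and 2101 counts in VEC-positive cells, against 831, 873 and 927 in VEC-null cells (log2 fold change 1.27 ± 0.07 SE). It was abundant and passed under all 16 other settings. *Meis3* had 5.83, 13.6 and 6.46 counts in VEC-positive cells, against 26.0, 31.5 and 34.6 in VEC-null cells (change −1.80, limma, adjusted p = 0.0066). *Pbx2* passed at 0.30 (limma, adjusted p = 0.0387) but not with edgeR (adjusted p = 0.0536), DESeq2 (adjusted p = 0.109) or without any VEC-positive library or VEC-null 1 (limma, adjusted p = 0.0586 to 0.131), and with equal totals it turned to −0.01. *Pbx3*, *Meis1* and *Pknox1* did not pass, with changes of 0.21, 0.32 and 0.10.

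**Figure D4:**
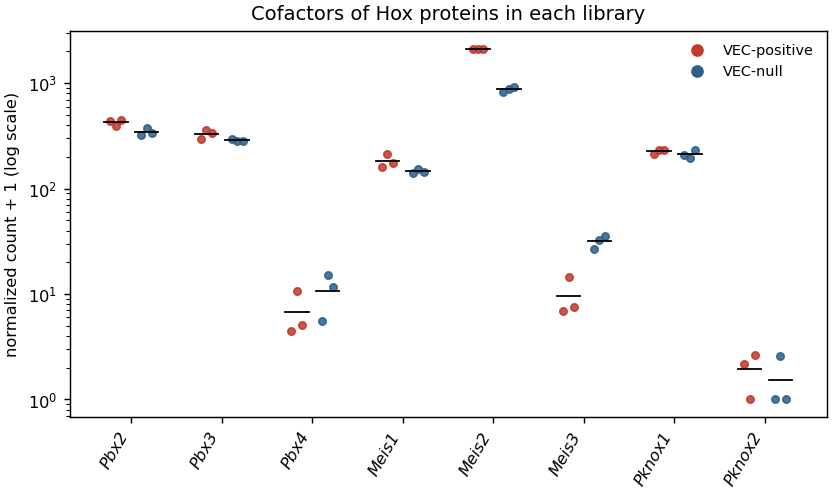
Normalized count + 1 (log scale) of 8 genes of Hox cofactors in each library, VEC-positive left of VEC-null within each gene, with a black line at the mean of 3 libraries. The VEC-positive points of *Meis2*, at 2101 to 2118 normalized counts, lie above its VEC-null points, and those of *Meis3* lie below its VEC-null points.

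Regulators known to set *Hox* patterns in the embryo were read from the same fit. Caudal factors carry posterior signals to the clusters. *Cdx2* had no reads in VEC-positive cells and 7 reads in VEC-null cells, all in VEC-null 3, and *Cdx1* and *Cdx4* had no row. Retinoic acid switches on anterior *Hox* genes through its nuclear receptors. Of 18 retinoid genes, 11 were tested, and 5 were higher, 1 was lower and 5 did not pass. In all, 54.5% passed, beside 37.3% of all genes tested, and the median change was 0.42. The receptor gene *Rarb*, itself switched on by retinoic acid, had 247.3, 219.2 and 238.9 normalized counts in VEC-positive cells, against 62.7, 59.1 and 55.9 in VEC-null cells (change 1.97). *Cyp26b1*, whose enzyme breaks down retinoic acid, had 44.3, 34.1 and 34.7 counts in VEC-positive cells, against 4.59, 1.58 and 6.21 in VEC-null cells (change 3.03), and *Rdh10*, of the synthesis pathway, changed by 1.59. *Rara* and *Rxrg* did not pass, with changes of 0.42 and −0.87.

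Polycomb and trithorax genes moved both ways. The shares that passed are to be read beside 37.3% of all genes tested. Polycomb repressive complex 2 places the repressive methyl mark on histone H3, complex 1 compacts the marked chromatin, and trithorax proteins oppose them. For complex 2, 4 of 11 genes were higher, 2 were lower and 5 did not pass (54.5% passed, median change 0.19). Its enzyme *Ezh2* had 510, 589 and 523 normalized counts in VEC-positive cells, against 1151, 920 and 927 in VEC-null cells (change −0.88, limma, adjusted p = 0.0005). *Jarid2* and *Aebp2*, which guide the complex, changed by 0.63 and 0.64, and *Suz12* (−0.08) and *Mtf2* (0.19) did not pass. *Phf19*, another accessory gene, passed at 0.80 (limma, adjusted p = 0.0291) but not with DESeq2 (adjusted p = 0.0523) nor without any VEC-positive library or VEC-null 2 (limma, adjusted p = 0.0658 to 0.107). For complex 1, 7 of 17 genes were higher, 4 were lower and 6 did not pass (64.7% passed, median change 0.38), and 7 in all passed without VEC-positive 1, VEC-positive 2, VEC-positive 3 or VEC-null 2. *Pcgf5* had 85.1, 100.3 and 68.6 counts in VEC-positive cells, against 29.1, 17.3 and 37.2 in VEC-null cells (change 1.62). *Cbx2*, whose loss shifts the axial skeleton in mice, had 84.0, 70.1 and 67.8 counts in VEC-positive cells, against 157.6, 170.9 and 152.5 in VEC-null cells (change −1.11). *Cbx6* changed by 0.81, and *Bmi1* (0.22) and *Ring1* (0.54) did not pass. Of 12 trithorax genes and demethylases, 3 were higher, 1 was lower and 8 did not pass (33.3% passed, median change 0.05). *Kmt2c*, *Kmt2d* and *Ash1l* changed by 0.64, 0.52 and 0.36, of which the calls of *Kmt2d* and *Ash1l* were lost with equal totals (0.21 and 0.05), and *Kmt2a*, the methyltransferase that keeps *Hox* genes active in blood cells, did not pass at 0.15.

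Genes that have been tied to single HOX factors in endothelium, mostly in human cells, were the last list read from this fit. Of 12 genes, 11 were tested, and 2 were higher, 2 were lower and 7 did not pass, which is 36.4% passed, beside 37.3% of all genes tested, with a median change of 0.11. The VEGF receptor gene *Kdr*, tied to HOXA9, had 19433, 18149 and 18860 normalized counts in VEC-positive cells, against 12920, 12302 and 12659 in VEC-null cells (change 0.58, limma, adjusted p = 0.001). *Efna1*, an ephrin tied to HOXB3, had 469, 513 and 534 counts in VEC-positive cells, against 1100, 1084 and 1349 in VEC-null cells (change −1.21), and *Mmp14*, a matrix protease tied to HOXA3, changed by −0.70. *Nos3*, tied to HOXA9, *Angpt2*, tied to HOXB5, and *Itgb3*, tied to HOXD3, did not pass, with changes of 0.06, −0.09 and −0.23. *Thbs2*, tied to HOXA5, was below the filter.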

How the data were processed

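Total RNA of 3 VEC-positive and 3 VEC-null libraries was sequenced with a stranded kit, and libraries were grouped by their labels. Trim Galore, TopHat2 2.1.1, mm10 and DESeq2 1.14 are in the submitters' processing notes. For the counting program, the annotation and the strand setting, the sources used here give nothing. The deposited signal values are gene counts that the authors had divided by 1 size factor per library: in each library 100% of values were whole multiples of 1 step, within 0.01 reads. GENCODE M21 gave symbols, coordinates and exon lengths for 23908 of 24080 identifiers.

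Genes whose normalized count reached 10 in 3 or more libraries (14032) were tested in limma 3.58.1 (R 4.3.3, mean-variance trend, two-sided) after adding a pseudocount of 1 and taking log2, with Benjamini-Hochberg adjustment over all of them and a threshold of 0.05. Fold changes are on the log2(value + 1) scale, which understates changes of low genes. Alternatives were pseudocounts of 0.5 and 5, no filter, a filter of 50, equal totals, TMM, no trend, a replicate block and leaving out each library. For levels, the same counts were also divided by the exon bases of no other gene. Recovered reads were also tested in edgeR 4.0.16 and DESeq2 1.42.0. All expressed members are named, most traces by their reads, and of the retinoid, Polycomb and trithorax lists up to 4 changes that passed and 2 that did not. Genes downstream of HOX factors were picked for naming after their values were seen. Some genes that this takes in are not reported here. Members and lists were chosen with earlier results of these data known. Figures were drawn with matplotlib 3.10.9.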

Additional observations from a re-analysis of the deposited data

How the results depend on the processing

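*Hoxa7* and *Meis2* passed in the same direction under all 16 alternatives. The count of *Hox* genes higher in VEC-positive cells was 1 except without VEC-null 1, so that leaving out 1 library gave 1 to 2. The count of *Hox* genes lower, 1 in the main comparison, was 2 with no filter (*Hoxb9* added), 5 with equal totals, 0 with DESeq2, 0 with the replicate block, and 0 to 3 when 1 library was left out. The count for other transcripts of the clusters, 1 in the main comparison, was 0 with equal totals, 0 with DESeq2, 0 with the replicate block and 0 to 1 when 1 library was left out. The count for Polycomb complex 1, 11, was 7 to 12 when 1 library was left out. Signs turned only for genes that did not pass or were near the threshold. With equal totals the change was −0.29 for *Hoxa3*, −0.031 for *Hoxa6*, −0.0067 for *Hoxb7*, −0.074 for *Hoxc6*, −0.054 for *Hoxc8*, −0.10 for *Hoxd8* and −0.0083 for *Pbx2*, where the median of all genes is −0.32. With edgeR and DESeq2 it was 0.0060 and 0.0071 for *Hoxa2*, −0.0040 and −0.0015 for *Hoxa3*, and −0.71 and −0.86 for *Hoxc6*, which was −0.23 with a pseudocount of 5. Leaving out 1 library gave −0.14 to 0.16 for *Hoxa2*, −0.042 to 0.10 for *Hoxa3*, −1.53 to 1.40 for *Hoxc6* and −0.14 to 0.66 for *Hoxc8*. The cause of these shifts was not tested. Replicate numbers did not pair the libraries: the correlation of same-numbered deviations was 0.076, −0.333 and −0.295. The block ended the call of *Hoxa5* (limma, adjusted p = 0.070), *Pbx2* (0.101), *Hoxd3os1* (0.085) and some list genes near the threshold. Traces with under 10 reads in each cell type are limited by depth.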
